A study of Mus musculus with 10 samples.

Results

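The region described here is the stretch of mouse chromosome 6 that holds Cd4 and its neighbour Lag3. All sites of a table of open chromatin within 50 kb of the Cd4 gene body (GRCm38, 6:124864693-124888247) were taken, which gave 20 of 39657 sites: 6 overlapped the gene body and 14 flanked it. The members were taken by position, but the region itself was chosen by the signal of its sites in knockout against control libraries, untreated and with acetate, so the genotype values of these 20 sites are a description and carry no test.

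Cd4 encodes the co-receptor of helper T cells, which binds MHC class II on the presenting cell and brings the kinase Lck to the T cell receptor. Lag3 encodes an inhibitory receptor of related structure that also binds MHC class II. Both mouse genes are read towards lower coordinates, so that the upper end of Cd4 is its 5′ end and Lag3 lies upstream of it. In the mouse, Cd4 is known to be controlled by its promoter, by a silencer in the first intron that keeps it off in CD8 T cells, and by an enhancer upstream of the promoter.

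Chromatin accessibility was read by ATAC-seq, in which a transposase cuts and tags open DNA, in Th17 cells, a class of helper T cell defined by interleukin-17. Naive CD4+ T cells from spleen and lymph nodes of PDHfl/fl CD4 Cre+ mice (KO) or PDHfl/fl mice (WT) were cultured for 3 days with anti-CD3, anti-CD28, IL-6, anti-IFNγ and TGFβ. The 10 libraries were KO untreated (n = 3), WT untreated (n = 3), KO with 10 mM sodium acetate (n = 2) and WT with 10 mM sodium acetate (n = 2). Pyruvate dehydrogenase (PDH) turns pyruvate into acetyl-CoA, acetate is another source of it, and the series title ties the enzyme to citrate and Th17 effector function. WT cells carry the floxed alleles and lack Cre, so that loss of the enzyme and presence of the CD4 Cre transgene go together in every KO library. Such a transgene drives Cre from Cd4 regulatory sequence. Reads from copies of that sequence and reads from the Cd4 locus itself cannot be told apart in these values, and no group of Cre-positive mice without the floxed alleles is among the samples analysed here. The labels do not state whether replicates are from different animals, so p-values measure only the spread between these libraries. In bulk libraries fewer cells with an open site and less signal per cell cannot be told apart.

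The value of a site is signal as the authors deposited it, taken here as whole reads divided by 1 factor per library. Reads in sites ran between 3500172 and 13356560 per library, and the 20 sites together held 2456 to 16108 reads. All 7 marker genes fixed for Th17 cells had a site, whereas no site lay nearest to Cd8a or Cd8b1, which encode the CD8 co-receptor. The other 3 of 5 CD8 T cell markers had 13 sites, which took 0.0190 to 0.0200% of the signal in KO and 0.0259 to 0.0286% in WT untreated libraries, and 0.0285 to 0.0304% in KO and 0.0277 to 0.0317% in WT libraries with acetate. Their part in the results was not tested. At Pdha1, a subunit gene of the enzyme, the single site had signal of 43.9 to 68.6 in KO untreated and 89.4 to 120 in WT untreated libraries, and of 54.3 to 75.9 in KO and 52.3 to 66.7 in WT libraries with acetate, which does not test for the deletion. Column names start with ATAC1 for 5 libraries, among them all 3 of KO untreated, and with ATAC2 for the other 5, among them all 4 with acetate. Of WT untreated, libraries 1 and 2 are ATAC1 and library 4 is ATAC2.

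Across the 20 sites the KO libraries differed from the WT libraries in opposite directions at neighbouring positions. At 7 sites every KO library exceeded every WT library both without and with acetate, a pattern met by 715 sites of the whole table (1.8%; 8.61% untreated and 4.63% with acetate). Those 7 were the 6 sites that overlap Cd4 and 1 site between Cd4 and Lag3. At the other 13 sites every untreated KO library lay below every untreated WT library, as at 80.9% of all sites, and with acetate KO and WT libraries overlapped at 8 of the 13 and KO lay below WT at 5, beside 30.3% of all sites. Both folds exceeded 2 at 59 sites of the table without overlap, and these included all 7.

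**Figure D1:**
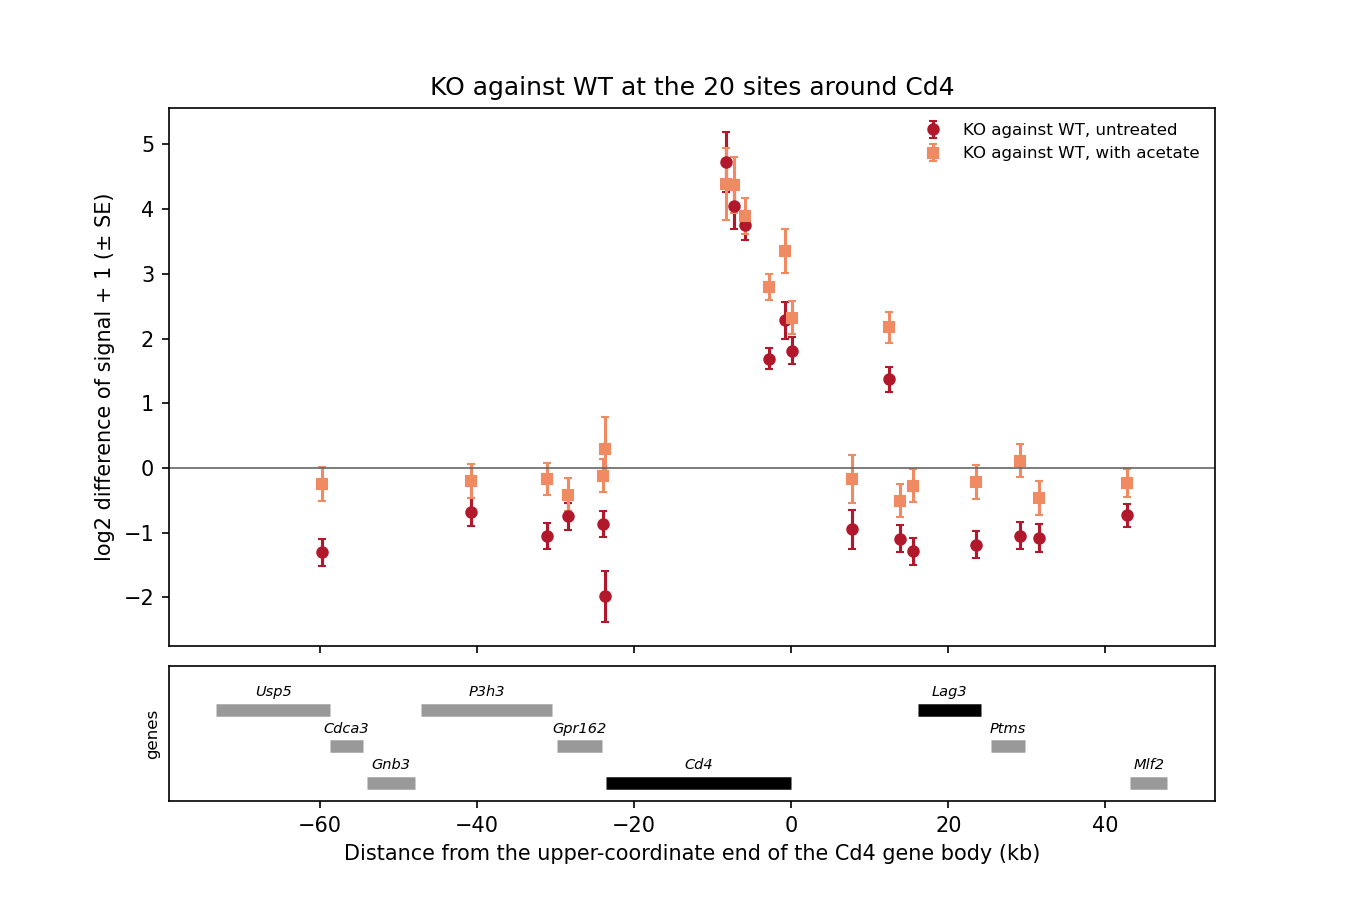
Log2 difference of signal + 1 between KO and WT (y axis, limma estimate ± SE) at the 20 sites by distance of each site's centre from the upper end of Cd4 in kb (x axis), untreated (dark red circles) and with acetate (orange squares), over the protein-coding gene bodies of the window. The 6 sites in the upper part of Cd4 and 1 site at 12.4 kb stand between 1.37 and 4.72, and the other 13 stand between -1.98 and 0.30.

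The 6 Cd4 sites lay together within 8.55 kb at the 5′ end of the gene, whose body is 23.6 kb long, and the lower 15.1 kb of the body held no site of the table. They are named here by the distance of their centre from the upper end of Cd4: 8.3 kb (6:124879835-124880035), 7.3 kb (6:124880802-124881002), 5.9 kb (6:124882242-124882442), 2.9 kb (6:124885264-124885464) and 0.8 kb (6:124887316-124887516) inside the gene, and the end site (6:124888183-124888383), which shares 65 bases with the gene body. The site between the genes, 12.4 kb upstream (6:124900561-124900761), lay 3598 bp from the lower end of Lag3. The gene table used here gives gene bodies and no exons.

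The 2.9-kb site, inside Cd4, carried the most signal of the 7 in every library. Untreated, its signal was 1963, 1816 and 2458 in KO, against 706, 561 and 660 in WT. With acetate it was 4398 and 3543 in KO and 572 and 568 in WT. The lowest KO library, at 1816, therefore stood above the highest WT library, at 706. Means were 2079 ± 336 (SD, n = 3) in KO and 642 ± 74.1 (n = 3) in WT untreated, a fold of 3.24, and the log2 difference was 1.69 ± 0.16 (SE). With acetate the fold was 6.96 and the log2 difference 2.79 ± 0.20 (n = 2 each).

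The 12.4-kb upstream site had untreated signal of 639.98, 637 and 849 in KO, against 272, 264 and 278 in WT. With acetate it had 1360 and 1278 in KO and 268 and 318 in WT. The lowest KO value, 637, lay above the highest WT value, 318, and the folds were 2.61 untreated and 4.50 with acetate. The end site, at the 5′ end of Cd4, had 701, 581 and 889 in KO untreated and 219.8, 163 and 232 in WT untreated libraries. With acetate it had 867 and 634 in KO and 163 and 134 in WT, and its folds were 3.53 and 5.05.

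The 3 sites deepest in the gene were nearly closed in WT cells. At the 8.3-kb site signal was 403, 374 and 499 in KO untreated libraries and 28.7, 20.1 and 5.53 in WT untreated libraries. With acetate it was 498 and 338 in KO and 24.6 and 14.0 in WT. The 3 WT untreated values rest on 5 to 23 reads each and the KO untreated values on 400 to 734. The log2 differences of 4.72 ± 0.46 untreated and 4.39 ± 0.56 with acetate were the highest of all 39657 sites in either comparison. Mean folds were 23.5 untreated and 21.6 with acetate. With acetate the 7.3-kb site had a higher mean fold, 25.1, and a log2 difference of 4.37 ± 0.43, within the SE.

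At the 7.3-kb site signal was 116, 82.2 and 144 in KO untreated and 3.75, 9.04 and 5.53 in WT untreated libraries. With acetate it was 189 and 106 in KO and 6.15 and 5.62 in WT, the last pair resting on 2 and 8 reads. The 5.9-kb site had 392, 384 and 544 in KO untreated and 33.7, 33.2 and 27.6 in WT untreated libraries, and with acetate 610 and 559.6 in KO and 36.9 and 40.02 in WT. Mean folds were 18.7 and 14.0 untreated at these sites and 25.1 and 15.2 with acetate. They ranked as the second and the third highest log2 differences of the table in both comparisons. In WT untreated cells the 8.3, 7.3 and 5.9-kb sites stood at percentiles 1.45, 0.0202 and 4.46 of mean signal among all sites, whereas the 2.9-kb site stood at 91.3.

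The 0.8-kb site was also low in WT, at percentile 5.50. Its signal was 185, 106 and 228 in KO untreated and 37.5, 19.1 and 50.9 in WT untreated libraries, a fold of 4.84. With acetate it was 225 and 145 in KO and 15.4 and 18.3 in WT, a fold of 11.0. No KO value came near a WT value at this site.

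**Figure D2:**
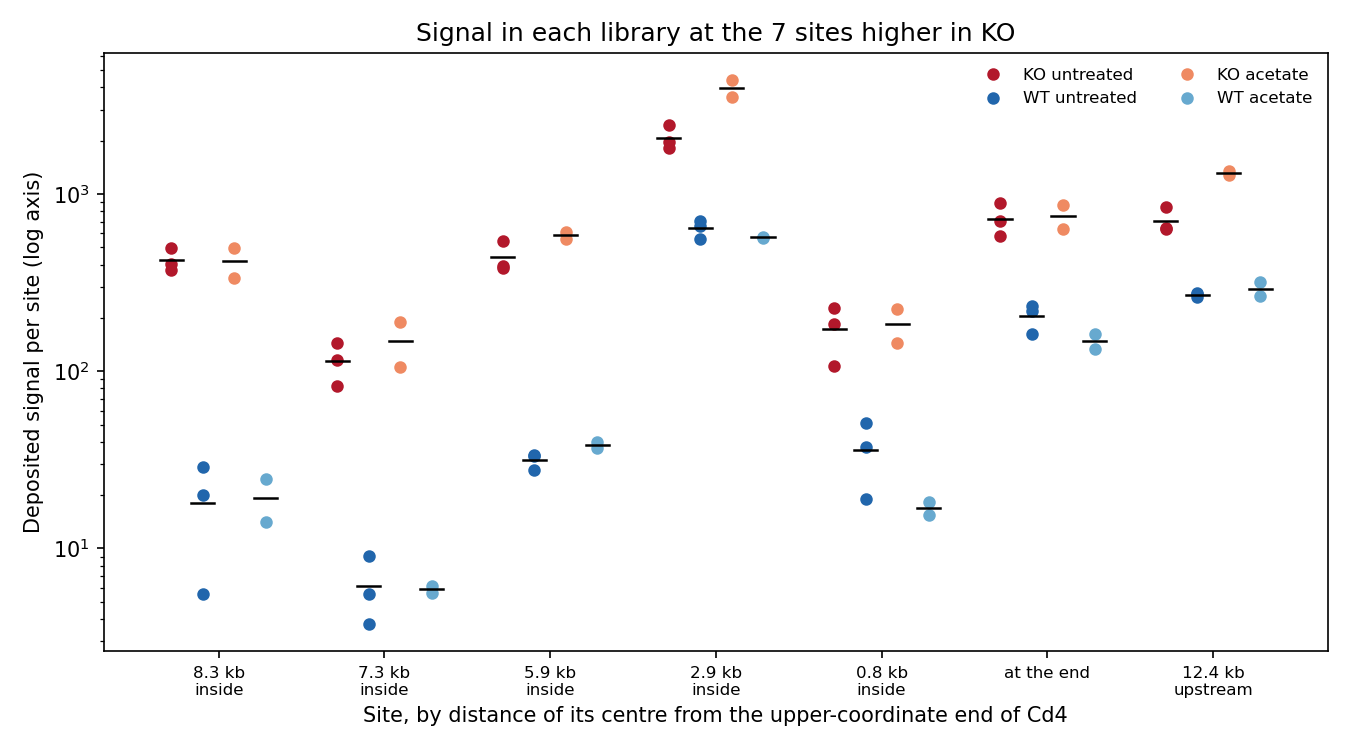
Deposited signal per site (y axis, log scale) in each of the 10 libraries (points, with group means as bars) at the 7 sites where KO exceeded WT, ordered along the gene (x axis). Within each setting every KO point lies above every WT point, and the lowest KO value anywhere is 82.2, at the 7.3-kb site.

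By fold the 7 sites spread widely, whereas in absolute signal the excess of KO over WT went mostly to sites already open in WT. Of the excess summed over the 7 sites, the 2.9-kb site held 41.6% untreated and 54.1% with acetate, and the end site held 15.0% and 9.58%. The 7.3-kb site, among the highest by fold, held 3.13% and 2.25%.

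The division of signal among the 7 sites within a library does not depend on the factor of that library. The 2.9-kb site took 43.8 to 45.6% of it in the KO untreated libraries and 52.4 to 54.2% in WT untreated, and 53.7 to 54.0% in KO and 51.7 to 52.7% in WT with acetate. The KO untreated libraries thus stood apart from the other 7 at this site. The 8.3, 7.3 and 5.9-kb sites took mean shares of 9.14, 2.43 and 9.41% in KO untreated and 1.51, 0.524 and 2.63% in WT untreated. With acetate these shares were 5.61, 1.96 and 7.98% in KO and 1.77, 0.539 and 3.52% in WT. The 12.4-kb upstream site took less of the signal in KO, at 14.5 to 16.01% untreated and 16.7 to 19.4% with acetate, than in WT, at 20.9 to 24.7% untreated and 24.6 to 29.0% with acetate.

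**Figure D3:**
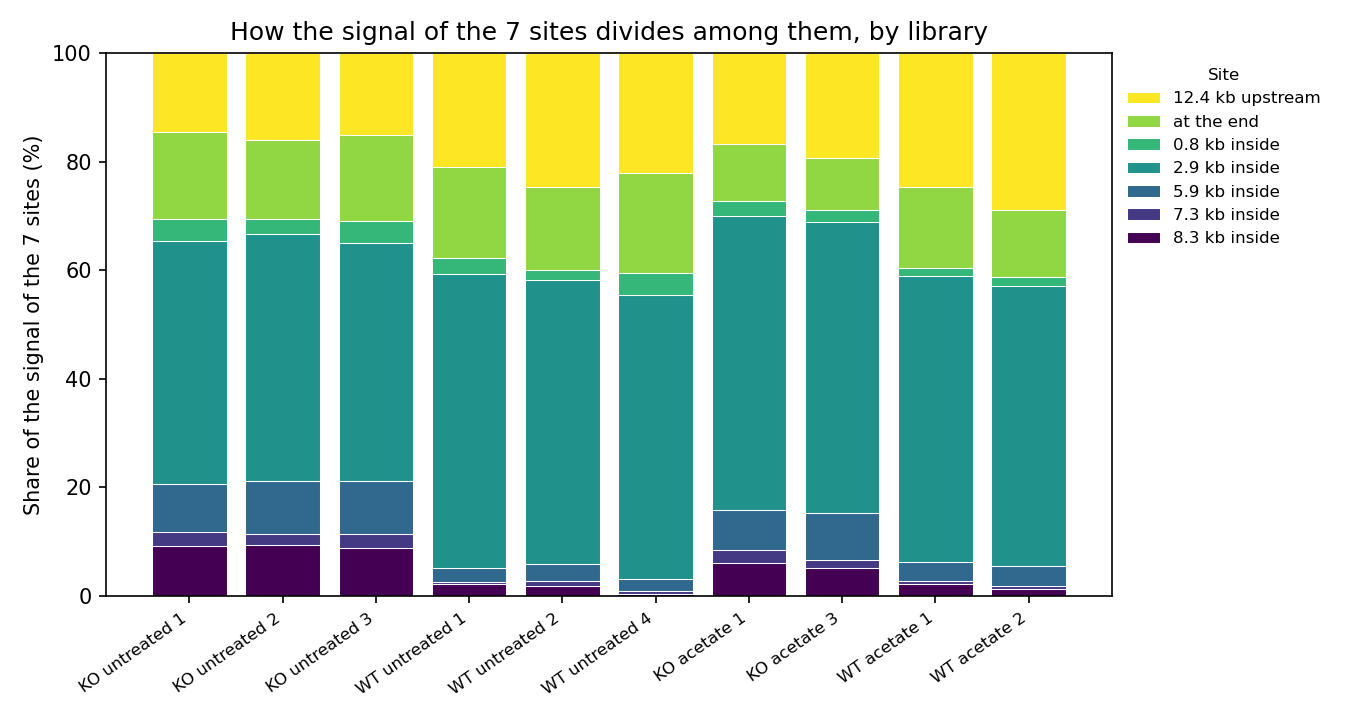
Share of the summed signal of the 7 sites that each site took (stacked bars, percent) in each library. The 3 sites deepest in Cd4, at the bottom of the bars, take more in every KO library than in any WT library, and the 2.9-kb site takes less in the 3 KO untreated libraries than in the other 7.

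Summed over the 7 sites, signal was 4664 ± 847 (SD, n = 3) in KO and 1210 ± 124 (n = 3) in WT untreated, and 7375 ± 1093 (n = 2) in KO and 1092 ± 8.42 (n = 2) in WT with acetate. Over the other 13 sites it was 2572 ± 196 in KO and 5119 ± 766 in WT untreated, and 5032 ± 782 in KO and 5885 ± 828 in WT with acetate. The ratio of the first sum to the second is free of the library factor. It was 1.86, 1.53 and 2.04 in the KO untreated libraries, against 0.247, 0.249 and 0.217 in WT untreated, and 1.46 and 1.47 in KO against 0.168 and 0.207 in WT with acetate. The fold of KO over WT in this ratio was 7.62 untreated and 7.82 with acetate. The 7 and the 13 were split by these same genotype values, so the direction of this fold follows from the split. Of the signal summed over the whole table, the 7 sites took 0.0647 to 0.0795% in KO and 0.0115 to 0.0118% in WT untreated libraries, and 0.0776 to 0.0865% in KO and 0.0101 to 0.0117% in WT libraries with acetate.

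The 13 other sites are those left once the 7 were picked for KO above WT, so a contrast with the 7 follows from that split. In the deposited values the 13 differed in the direction of the table, and their median lay further from 0 than that of the table. Their median log2 difference between KO and WT was -1.05 untreated and -0.22 with acetate, against -0.84 and -0.15 over all sites. Over the 7 sites it was 2.28 and 3.35. By position alone, the 6 Cd4 sites had medians of 3.01 untreated and 3.62 with acetate. The 14 flanking sites, among them the 12.4-kb site, had -1.05 and -0.21. The lowered untreated values depend on the deposited scaling, which sets the median of the whole table. With cyclic loess, which centres the table near 0, the 13 sites had a median of -0.30 and the 7 sites 3.21.

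Some of the 13 lay beside or between the 7. The site at 6:124895903-124896103, between the end site and the 12.4-kb site, had signal of 21.4, 18.7 and 29.6 in KO untreated and 48.7, 38.2 and 48.6 in WT untreated libraries. Under acetate it had 65.6 and 67.9 in KO and 76.9 and 73.7 in WT, so that KO lay below WT in both settings. The site at 6:124901969-124902169, next upstream of the 12.4-kb site, had a mean of 188 ± 27.4 in KO and 407 ± 91.6 in WT untreated, and 372 ± 52.0 in KO and 531 ± 106 in WT with acetate. At the other end of Cd4, 37 bp beyond its lower end and towards Gpr162, an orphan receptor gene, the site at 6:124864456-124864656 had 10.4, 5.60 and 4.73 in KO untreated and 23.7, 24.1 and 42.0 in WT untreated libraries. With acetate it had 43.5 and 37.7 in KO and 27.7 and 38.6 in WT.

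Of the 4 sites nearest to Lag3, the 12.4-kb site was higher in KO and the other 3 were not. The site at 6:124903632-124903832, 527 bp below the lower end of Lag3, had 194, 149 and 225 in KO untreated and 542, 344 and 512 in WT untreated libraries. With acetate it had 447 and 347 in KO and 502 and 453 in WT. The site within Lag3 (6:124911638-124911838), close to the upper end of the gene, had 130.0, 174 and 157 in KO untreated and 325, 261 and 499.7 in WT untreated libraries. With acetate it had 740.0 and 504 in KO and 775 and 649 in WT, where the groups overlapped.

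The remaining 8 sites lay at Usp5, P3h3 (2 sites), Gpr162 (2 sites), Ptms (2 sites) and Mlf2. Untreated KO means at these 8 were 112 to 636, against 209 to 1051 in WT, with log2 differences of -1.30 to -0.68. Under acetate the differences were -0.47 to 0.11. The outermost members, at Usp5 36.2 kb and at Mlf2 42.6 kb from the Cd4 body, had log2 differences of -1.30 and -0.73 untreated. The nearest sites outside the window, at Tpi1 50.4 kb and at Cops7a 77.2 kb away, had -1.01 and -0.67. Widening the window to 200 kb took in 53 sites, and the number with every KO library above every WT library in both settings stayed at 7.

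The comparison of acetate with untreated cells, in KO and in WT, was not used to choose the region and was tested. Its KO libraries and its WT libraries all served in the choice, so neither test is independent of it. In KO cells, signal rose at 14 of the 20 sites and fell at 0 (limma, adjusted p under 0.05; 14 sites had an unadjusted p under 0.05), beside 54.6% of all sites called higher and 5.94% called lower. Of the 14 flanking sites 13 rose, with a median log2 difference of 0.95, and of the 6 Cd4 sites 1 rose, with a median of 0.23. The median of all sites was 0.61. All KO untreated libraries are ATAC1 and all KO acetate libraries ATAC2, so acetate and the prefix cannot be told apart in this comparison except by way of the WT untreated libraries. With the prefix as a covariate 8 of the 20 rose, beside 10828 of all 39657 sites.

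The Cd4 site that rose in KO cells was the 2.9-kb site, with 4398 and 3543 under acetate and 1963, 1816 and 2458 untreated, without overlap. Its log2 difference was 0.94 ± 0.18 (adjusted p = 7.59e-06), and it was called in each of 3 other scalings, at log2 differences of 0.32, 0.42 and 0.64 (highest adjusted p = 0.0466), and with each library left out (highest adjusted p = 0.0123). The 12.4-kb upstream site rose by 0.91 ± 0.22 (adjusted p = 0.000251), and this call was lost in the 3 other scalings, at adjusted p of 0.0545 to 0.157. Log2 differences at the other 5 Cd4 sites were -0.04 ± 0.51 at 8.3 kb, 0.34 ± 0.40 at 7.3 kb, 0.43 ± 0.25 at 5.9 kb, 0.13 ± 0.31 at 0.8 kb and 0.06 ± 0.23 at the end site, and none was called. With the prefix as a covariate the 8.3-kb site was called higher (log2 1.90, adjusted p = 0.000187), an offset that rests on WT untreated library 4, with 5 reads there. Relative to the median of all sites the end site lay 0.55 lower, and it was called lower in the 3 other scalings, at adjusted p of 0.0166, 0.0210 and 0.0429.

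Among the flanking sites the Lag3 body site rose 4.05-fold in KO cells (log2 1.99 ± 0.24, adjusted p = 3.05e-12), and this call held in every scaling and with every library left out. The log2 difference was 1.38, 1.48 and 1.41 in the 3 other scalings and 1.22 (adjusted p = 0.00536) with the prefix as a covariate. The site beyond the lower end of Cd4 rose by 2.46 ± 0.44 on the log2 scale (adjusted p = 1.27e-06), with 4 to 19 reads per KO untreated library, and by 1.67 with the prefix as a covariate (adjusted p = 0.0456). The site between the end site and the 12.4-kb site rose by 1.51 ± 0.34 (adjusted p = 7.84e-05), and one at Ptms, 6:124919716-124919916, by 1.36 ± 0.24 (adjusted p = 8.27e-07). With the 2.9-kb site, these 4 made up the 5 sites called higher in the deposited values and in all 3 other scalings. Ptms encodes parathymosin, a small acidic nuclear protein.

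**Figure D4:**
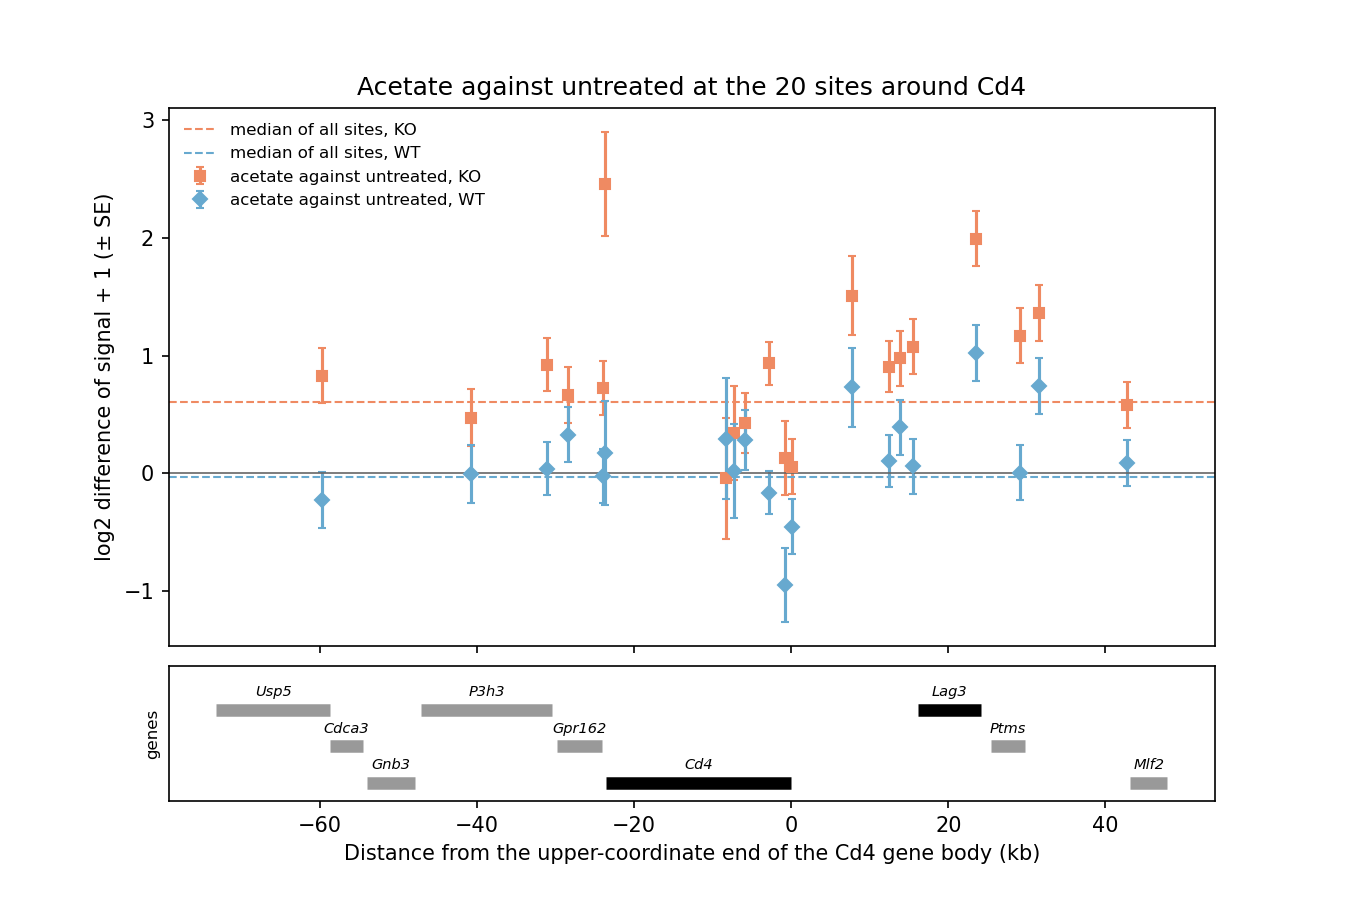
Log2 difference of signal + 1 between acetate and untreated cells (y axis, limma estimate ± SE) at the 20 sites by distance from the upper end of Cd4 in kb (x axis), in KO (orange squares) and WT (blue diamonds), with the median of all sites as dashed lines at 0.61 for KO and -0.03 for WT. In KO most flanking points lie above the dashed line and 5 of the 6 Cd4 points below it, and in WT the highest point is the Lag3 body site.

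In WT cells, whose libraries carry no Cre, signal rose with acetate at 2 of the 20 sites and fell at 0 (limma, adjusted p under 0.05; 4 sites had an unadjusted p under 0.05), beside 2.91% of all sites called higher and 3.02% called lower. The Lag3 body site had 775 and 649 under acetate, against 325, 261 and 499.7 untreated, without overlap. Its log2 difference was 1.02 ± 0.24 (adjusted p = 0.00215). This call held in 3 other scalings (highest adjusted p = 0.0105) and was lost without WT acetate library 1 (adjusted p = 0.139). Within the ATAC2 libraries, where WT untreated library 4 is the single untreated one, the difference was 0.50 (adjusted p = 0.315), so the rise cannot be told apart from a difference between prefixes.

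The second site was the one at Ptms, with 406 and 393 under acetate and 224, 224 and 272 untreated. It rose by 0.74 ± 0.24 on the log2 scale (adjusted p = 0.0415), and the call was lost without any of 8 of the 10 libraries (highest adjusted p = 0.338) and within ATAC2 (adjusted p = 0.251). None of the 6 Cd4 sites was called in WT, and 1 had an unadjusted p under 0.05: the 0.8-kb site, at -0.95 ± 0.31 (adjusted p = 0.0531). That site was called lower within ATAC2 (log2 -1.55), where the 8.3-kb site was called higher (log2 1.59), and WT untreated library 4 is the single untreated library behind both. The 2.9-kb site had a difference of -0.16 ± 0.18 and the 12.4-kb site one of 0.10 ± 0.22.

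The interaction is the acetate effect in KO minus that in WT. It equals the KO and WT difference with acetate minus that difference untreated, which are the values that chose the region, so it is a description with no test. At the 2.9-kb site it was 1.10 ± 0.26 (log2, SE) and at the 12.4-kb site 0.80 ± 0.31, beside a median of 0.67 over all sites. It passed the calling threshold upwards at 8 of the 20 sites and downwards at 0, beside 19.5% and 3.61% of all sites. With the prefix as a covariate the value at the 2.9-kb site was 1.08, and in the 3 other scalings it was 0.45, 0.55 and 0.71.

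The order of the groups differed between the classes of site, which were split by the genotype values. In the deposited values KO with acetate had the highest mean and KO untreated the next at 6 of the 7 sites. The order was the other way round at the 8.3-kb site. That order depends on the scaling. In the 3 other scalings the log2 difference between acetate and untreated in KO was -0.27, -0.17 and -0.43 at 7.3 kb. It was -0.19, -0.09 and -0.26 at 5.9 kb, -0.49, -0.38 and -0.63 at 0.8 kb, and -0.56, -0.46 and -0.52 at the end site. It stayed positive at the 2.9 and 12.4-kb sites. KO with acetate and KO untreated overlapped at the 8.3, 7.3 and 0.8-kb sites and the end site, and did not at the 5.9, 2.9 and 12.4-kb sites. At all 13 other sites KO untreated had the lowest mean in the deposited values. Untreated, every KO library lay below every WT library at 80.9% of all sites. The share of all sites with KO untreated lowest was not counted, so this order is not read as particular to the 13 sites. The share of sites without overlap between neighbouring groups was not counted either.

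Genes that act on Cd4 or beside it were read from a list of 23, of which 21 had at least 1 site and which held 326 sites. In untreated cells KO was called higher than WT at 7 of these sites and lower at 315, with a median log2 difference of -0.91 beside -0.84 over the table, where 9.07% of sites were called higher and 89.6% lower. With acetate 0 of the 326 were called between KO and WT, beside 0.0227% called higher over the table, and the median was -0.20.

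Under acetate against untreated, 171 of the 326 sites rose and 6 fell in KO, beside 54.6% and 5.94% of all sites, with a median of 0.61 equal to that of the table. These counts too depend on the scaling. In the 3 other scalings 5265, 6856 and 4567 of all 39657 sites rose in KO, and the list was not counted. In WT 5 rose and 6 fell, beside 2.91% and 3.02% of all sites. Runx3, whose factor binds the Cd4 silencer in CD8 T cells, had 13 of 17 sites called higher and 0 lower in KO, and 2 higher and 0 lower in WT. Its site at 4:135114481-135114681 had mean signal of 422 ± 31.4 (SD, n = 2) under acetate and 89.2 ± 19.2 (n = 3) untreated in KO, and of 447 ± 7.06 and 205 ± 42.0 in WT, with log2 differences of 2.25 ± 0.24 (adjusted p = 2.08e-14) in KO and 1.14 ± 0.24 (adjusted p = 0.000626) in WT. Myb, a factor of early T cells, had 11 of 15 sites called higher and 0 lower in KO, and 1 higher and 0 lower in WT. Ets1, a lymphocyte factor, had 15 of 48 higher and 1 lower in KO, and 0 higher and 3 lower in WT. Runx1, a relative of Runx3, had 13 of 25 higher and 0 lower in KO, and 0 higher and 2 lower in WT. Calls that were lower in KO came from other genes of the list as well, with 2 each at Dnmt1 and Tcf12, named here after their values were seen. Prefix and acetate cannot be told apart in the KO counts except by way of the WT untreated libraries.

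Outside the window, the sites whose log2 signal over the 10 libraries was most like the mean of the 7 sites were found among 18699 sites of at least median signal that have a gene within 50 kb. The highest Pearson r was 0.894, at 3:60441954-60442154 near Mbnl1, which encodes a splicing regulator. Its mean signal was 182 ± 33.9 in KO and 90.6 ± 7.81 in WT untreated, and 207 ± 0.372 in KO and 123 ± 8.67 in WT with acetate. The next 4 were near Sema3c (r = 0.835), Klrb1f (0.833), Sh3pxd2b (0.833) and Thg1l (0.808). Sites without a gene within 50 kb were left out of this search. Among those left out, 3:60795381-60795581 had folds of KO over WT of 4.57 untreated and 13.3 with acetate. The site at 3:60790238-60790438 had folds of 2.62 and 7.65. Both had every KO library above every WT library in both settings, and both are named here after their values were seen. Over the same libraries r was 0.947 to 0.994 for each of the 7 sites with their own mean, and -0.73 to -0.37 for the other 13. Each of the 7 is part of that mean, and the 7 were picked for a shared pattern that the 13 lack. This contrast therefore follows from the split and from the deposited scaling used for r. These values describe 10 libraries in 4 groups, and the highest r of many sites is high by choice.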

How the data were processed

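The authors deposited 1 table of 39657 sites on GRCm38 with 1 signal value per site and library. A step fitted to each library turned 100% of values into whole reads to within 0.001, so signal is taken as reads divided by a factor per library, and read counts are those this step gives. The sources used here do not give how the authors made that factor or chose the sites. The submitters' processing notes name deepTools 3.5.1, DESeq, DESeq2, DiffBind 3.6.1, Genrich, Picard 2.10.9, BWA 0.7.16a and FastQC 0.11.5, with no role.

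Columns were matched to libraries by name. WT untreated 4 and KO acetate 3 carry a number that no title of their group has, so they were placed by group alone. Genes are protein-coding RefSeq gene bodies of GRCm38.p6, nearest within 50 kb. Log2(signal + 1) of all sites was fitted with limma 3.58.1 (trend, robust; R 4.3.3) with 4 group means. Benjamini-Hochberg adjustment covered the whole table, and calls are adjusted p below 0.05. The planned count test was not run, because a separate check on low values did not accept several libraries as whole reads. Python 3.11.15, numpy 2.4.6, pandas 2.3.3 and matplotlib 3.10.9 made the other tables. The limma script was tested on simulated data. The region, lists and naming rule were chosen with earlier results of these data known. Named were the sites raised in every KO library, those at gene ends and those called with acetate. Likeness took the 5 genes with the highest r, and the list named the 4 genes with the smallest adjusted p with acetate.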

Additional observations from a re-analysis of the deposited data

Results flagged for a closer look

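The interaction (acetate effect in KO minus that in WT) passed the calling threshold of limma at 8 of the 20 sites, beside 19.5% of all sites. It is the difference of the 2 genotype differences that chose the region, so these values are a description and no independent test. The log2 values were 1.06 (6:124828327-124828527, Usp5), 0.88 (6:124857067-124857267, P3h3), 2.28 (6:124864456-124864656, beyond the lower end of Cd4), 1.10 (the 2.9-kb site in Cd4), 0.80 (the 12.4-kb upstream site), 1.01 (6:124903632-124903832, below Lag3), 0.97 (the Lag3 body site) and 1.17 (6:124917247-124917447, Ptms). The median over all sites was 0.67 as deposited and 0.00 with cyclic loess. At the Ptms site WT untreated library 4 had 931 while WT untreated libraries 1 and 2 had 451 and 394. The column prefix was also fitted as a covariate, an offset taken as the same in KO and WT. In that fit 7 of the 20 sites passed upwards, beside 11403 of all 39657 sites, and the Ptms site had 0.78. A prefix offset that differs between KO and WT cannot be told apart from these values.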

How the results depend on the processing

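All 7 sites stayed above WT in every KO library under each of 3 scalings and with windows of 25 and 200 kb. Their median log2 difference untreated was 2.28, and 3.07 with median-of-ratios factors, 2.99 with total signal, 3.21 with cyclic loess, 2.58 with the prefix as a covariate or in ATAC1 alone, and 1.90 to 2.59 leaving out 1 library. With acetate it was 3.35, and 3.495, 3.51 and 3.49 in the same scalings, 3.09 with a pseudocount of 5 and 3.04 to 3.67 leaving out 1 library. The other 13 sites had -1.05 untreated, and -0.25, -0.34 and -0.30 in those scalings. Sites that rose with acetate in KO numbered 14, and 5, 9 and 8 in those scalings (where 1 was lower in each), 8 with the prefix as a covariate and 10 to 16 leaving out 1 library. Those in WT numbered 2 higher and 0 lower, and 1 and 1 with the prefix or in ATAC2 alone, 0 to 2 higher and 0 to 1 lower leaving out 1 library, and 1 lower among sites of mean signal of at least 50. The interaction count of 8 was 7 with the prefix as a covariate, 0, 1 and 1 in the scalings and 0 to 10 leaving out 1 library (0 without KO acetate library 1). Of all 39657 sites, 5265, 6856 and 4567 were called higher with acetate in KO in those scalings. Lower calls numbered 6323, 4991 and 6625. The prefix as a covariate gave 10828 higher in KO, and 1555 higher and 412 lower in WT. Upward interaction calls over the table numbered 79, 111 and 55 in the scalings and 11403 with the prefix. The site at 6:124930838 turned to -0.0354 in KO with median-of-ratios factors. Of 9 pairs of same-numbered libraries 1 had deviations correlated above 0.1, WT untreated 2 with WT acetate 2 at 0.33. Deviations from means of 2 or 3 libraries cannot decide whether the numbers pair them. With a replicate block 15 sites rose in KO, 3 in WT, and 9 had a positive interaction, beside 20669, 2641 and 16009 of all 39657 sites. The cause of these shifts was not tested, save that scalings move the table median in KO from 0.61 to between -0.02 and 0.10. A lone library left in a group is assumed to vary like the others. WT values at the deepest Cd4 sites rest on 2 to 57 reads. The planned count test was not run, and acetate in KO and the interaction could not be fitted within 1 prefix.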
